A study of Mus musculus with 2 samples.

Results

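The genes described here encode subunits, other than KDM2B itself, of variant Polycomb repressive complexes of type 1 (PRC1). They are 10 genes picked by name: Pcgf1, Bcor, Bcorl1, Rybp, Yaf2 and Usp7, called PRC1.1 partners here, and Pcgf3, Pcgf5, Pcgf6 and L3mbtl2 of the complexes PRC1.3, PRC1.5 and PRC1.6. All 10 were listed under their symbols among the 13620 genes of the table. The data are poly(A) RNA sequencing of C57BL/6J mouse embryonic stem (ES) cells, 1 library from the wild type (WT) and 1 from the genotype Fbxl10 T/T, homozygous for the T allele of Fbxl10, the older name of Kdm2b. Cells of both genotypes had been cultured with serum and leukemia inhibitory factor on mouse embryonic fibroblast feeders, which were depleted by letting them attach to plastic. What the T allele alters, and whether a line is 1 clone, is not given in the sources used here. With 1 library each, the genotypes could not be tested against each other, and every "higher" or "lower" describes these libraries.

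Every PRC1 complex joins a RING1A or RING1B ubiquitin ligase to a PCGF protein, and modifies histone H2A with ubiquitin. Variant complexes carry RYBP or its paralogue YAF2 in place of a chromobox subunit. In PRC1.1, PCGF1 binds BCOR or BCORL1, which link it to KDM2B, and the CXXC domain of KDM2B recognises unmethylated CpG islands. PCGF3 and PCGF5 work with AUTS2-family proteins and casein kinase, and PRC1.6 joins PCGF6 and L3MBTL2 to the DNA-binding proteins MGA, MAX and E2F6. In ES cells PRC1.6 is known for holding germline genes silent.

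Because KDM2B reads CpG dinucleotides, 3 start-site windows are shown with each CpG in capitals. They are those of Pcgf5, the member with the largest ratio, of L3mbtl2, which was lower, and of its PRC1.6 partner Pcgf6, which stayed within 2-fold. Each is the 250 bases before a RefSeq start in GRCm38.p6, written 5′ to 3′ on the gene's strand. They lie at chr19:36409498-36409747 on the plus strand for Pcgf5, chr15:81663639-81663888 on the plus strand for L3mbtl2, and chr19:47050907-47051156 on the minus strand for Pcgf6.
Pcgf5: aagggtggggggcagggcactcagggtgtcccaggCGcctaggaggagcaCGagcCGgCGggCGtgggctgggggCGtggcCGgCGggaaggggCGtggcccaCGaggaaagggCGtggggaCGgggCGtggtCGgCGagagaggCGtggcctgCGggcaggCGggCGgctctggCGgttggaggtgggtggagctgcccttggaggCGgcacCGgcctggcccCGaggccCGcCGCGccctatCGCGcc
L3mbtl2: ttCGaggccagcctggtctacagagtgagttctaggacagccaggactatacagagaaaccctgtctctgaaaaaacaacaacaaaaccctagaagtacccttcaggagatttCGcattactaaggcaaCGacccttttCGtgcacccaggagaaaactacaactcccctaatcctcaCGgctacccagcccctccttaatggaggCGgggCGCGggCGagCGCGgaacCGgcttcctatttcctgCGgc
Pcgf6: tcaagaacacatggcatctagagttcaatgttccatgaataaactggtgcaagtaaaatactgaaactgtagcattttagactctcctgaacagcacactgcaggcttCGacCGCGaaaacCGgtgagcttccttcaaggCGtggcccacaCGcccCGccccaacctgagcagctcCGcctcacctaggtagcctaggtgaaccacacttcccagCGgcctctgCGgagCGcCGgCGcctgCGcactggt
These windows hold 28, 13 and 14 CpGs. Over the 32851 windows of this length in the RefSeq table the median was 6 CpGs, and 7.61% held at least as many as that of Pcgf5. The table gave 10 windows for 7 members, with 4 to 55 CpGs, and 9 of them were above the median. Both windows of Bcor (17 and 16 CpGs) are among these 9 and cover nearly the same bases. Usp7, a deubiquitinase gene, had the window with 55, a number reached by 0.00913% of windows. Pcgf5 has windows at 3 starts, with 23, 4 and 28 CpGs, and the one shown has the distance to the gene's end nearest the length of the listed interval. That distance and length differ by 4778 bases for this window, and by 77 and 63 for L3mbtl2 and Pcgf6. They differ by 17784 for Usp7 and by 80295 and 80304 for Bcor, so these windows may not lie at the starts of the listed intervals. Pcgf1, Rybp and Yaf2 were not matched. The E-box CACGTG, which reads the same on both strands and is known to be bound by MAX with its partners, occurred in 1 of the 10 windows, that of Bcorl1, and in 6.02% of all windows. The E2F-type motif GCGGGAA, searched on both strands, also occurred in 1, the Pcgf5 window shown, and in 3.82% of all windows. A match describes letters and no binding or methylation was measured here.

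Kdm2b, the targeted gene, was at 102.5 CPM in WT (2449 reads) and 10.6 CPM in Fbxl10 T/T (262 reads). CPM was taken, from the values, to be the authors' read count per 1000000 reads of a normalised library size. The level in T/T was 10.3% of that in WT. The table lists Kdm2b on chromosome 5 from 123320688 to 123439832 in mm9, where its interval overlaps that of A930024E05Rik. Reads from a part of the gene that the allele leaves intact would count towards this value. Kdm2a, the paralogue of Kdm2b, was at 133.7 and 130.0 CPM, and the quotient of Kdm2a to Kdm2b went from 1.304 in WT to 12.2 in T/T.

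Subunits of each group went in both directions. Pcgf5 and Yaf2 were at least 2-fold higher in Fbxl10 T/T, Bcor and L3mbtl2 were at least 2-fold lower, and the other 6 lay within 1.5-fold under the authors' scaling. Ratios are of (T/T CPM + 0.5) over (WT CPM + 0.5) for genes at 1 CPM or more in a library, with 2-fold as a fixed rule of size. By this rule 14.8% of the 13512 such genes were higher and 20.6% lower, 35.3% in all, so 4 of 10 members is near the background. With the libraries rescaled to a common upper quartile the shares of all genes were 10.7% higher and 24.1% lower, and with equal totals 9.75% and 25.2%. Among the 10986 genes at 5 CPM or more in a library, as all 10 members were, 16.6% were higher and 15.8% lower. A count-based comparison of these libraries by edgeR, with an assumed coefficient of variation of 0.2, called the same 4 members and 36.1% of all genes, and with 0.4 it called 0 of the 10 and 12.5% of all genes. The log2 ratio had a median of 0.14 over the 6 PRC1.1 partners and of -0.30 over the 4 subunits of the other complexes. Rescaled to a common upper quartile or to equal totals the first became -0.10 or -0.16, and so has no stable direction, and the second -0.53 or -0.60. The median over all genes was 0.02, and either group spanned a wider range than the gap between the medians, from -1.37 to 1.39 in the first and from -1.14 to 2.34 in the other. Of the PRC1.1 partners 1 was higher and 1 lower, and of the other 4 subunits likewise 1 and 1.

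**Figure D1:**
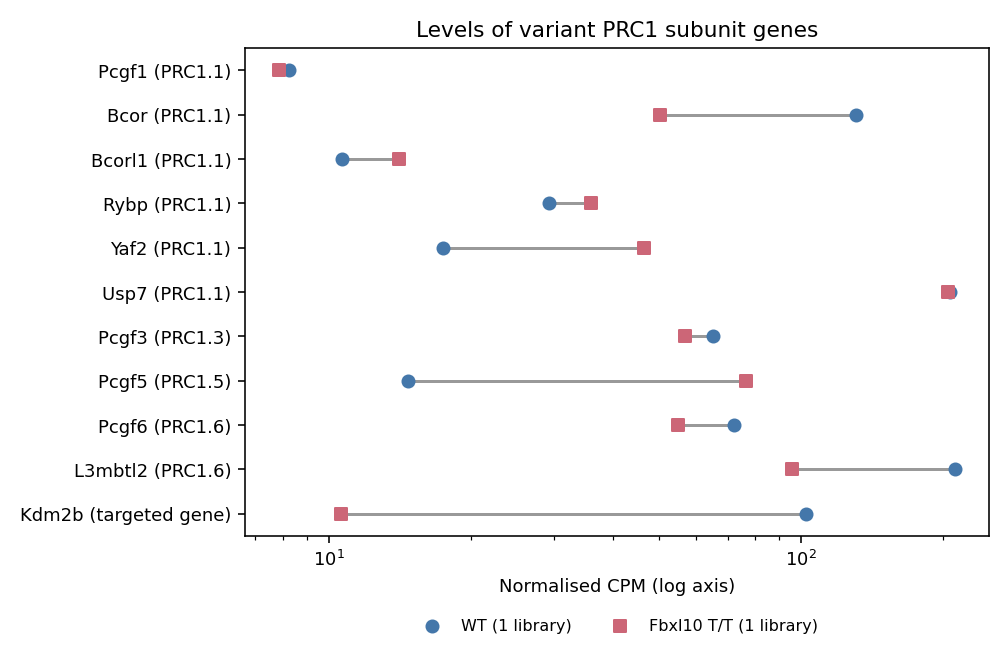
Normalised CPM (log axis) of the 10 members and Kdm2b in the WT library (circles) and the Fbxl10 T/T library (squares). Lines join the libraries of a gene. Pcgf5 went from 14.7 to 76.6 CPM and Bcor from 130.8 to 50.4 CPM, while the marks of Usp7 at 206.2 and 204.2 CPM nearly coincide.

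Pcgf1 encodes the PCGF protein that defines PRC1.1. Its RNA was at 8.25 CPM in WT (197 reads) and 7.86 CPM in T/T (194 reads), and the 95% exact binomial (Clopper-Pearson) interval of its fold, 0.777 to 1.17, spans no change. These intervals cover counting error only, since PCR copies are not independent molecules and cultures were not replicated. A difference of this size was not detectable at this depth under the authors' scaling. With a common upper quartile or equal totals the interval lay below 1, at 0.659 to 0.990 and 0.628 to 0.944, so this reading depends on the scaling. The gene is listed on chromosome 6 from 83028384 to 83030841 in mm9, as are all positions of listed genes here.

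The 2 BCOR proteins are alternative scaffolds of PRC1.1, and their genes lie 34.0 Mb apart on the X chromosome. Bcor (11613866 to 11657180) was at 130.8 CPM in WT (3124 reads) and 50.4 CPM in T/T (1243 reads). It was 2.60-fold lower, with a counting interval of 2.43- to 2.78-fold, and 15.7% of all genes had a smaller log2 ratio. Bcorl1 (45694535 to 45761226) was at 10.7 CPM in WT (255 reads) and 14.1 CPM in T/T (348 reads). It was 1.32-fold higher (1.12 to 1.56), inside the 2-fold limits. The quotient of Bcorl1 to Bcor was 0.0816 in WT and 0.280 in T/T, a 3.43-fold difference with an exact conditional counting interval of 2.87 to 4.10. The fold between the libraries of such a CPM quotient does not depend on gene length or scaling, whereas the quotient itself depends on the lengths of both genes and does not order their levels. Bcor remained the more abundant of the pair per length, at 15.1 and 5.81 CPM per kb of exon against 1.25 and 1.66 for Bcorl1.

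RYBP and YAF2 occupy the same place in variant PRC1 of every type, not in PRC1.1 alone. Rybp (chromosome 6, 100178560 to 100237435) was at 29.2 CPM in WT (698 reads) and 35.9 CPM in T/T (887 reads), 1.23-fold higher (1.11 to 1.36). With the libraries rescaled to equal totals its log2 ratio of 0.29 turned to -0.01, so it has no stable direction. Yaf2 (chromosome 15, 93114341 to 93167366) was at 17.5 CPM in WT (418 reads) and 46.6 CPM in T/T (1150 reads). It was 2.66-fold higher (2.38 to 2.98), and 8.63% of all genes had a larger log2 ratio. The quotient of Yaf2 to Rybp was 0.599 in WT and 1.297 in T/T, a 2.16-fold difference (1.86 to 2.52). Per kb of exon, Yaf2 was at 9.34 and Rybp at 6.17 CPM in WT, and they were at 24.9 and 7.58 CPM in T/T. The longest run of bases shared by transcripts of Rybp and Yaf2 was 23. A processed pseudogene, Rybp-ps, shares a run of 269 bases with Rybp and is listed separately at 10.6 and 21.1 CPM, so reads may be split between them and the Rybp values are uncertain.

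USP7 is a deubiquitinase that associates with PRC1.1 and has many other substrates, p53 and MDM2 among them. Usp7 (chromosome 16, 8689706 to 8757110) was at 206.2 CPM in WT (4924 reads) and 204.2 CPM in T/T (5042 reads). Its fold of 0.991 had a counting interval of 0.952 to 1.03, the narrowest among the members in relative terms. Rescaled to equal totals, its log2 ratio was -0.32.

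**Figure D2:**
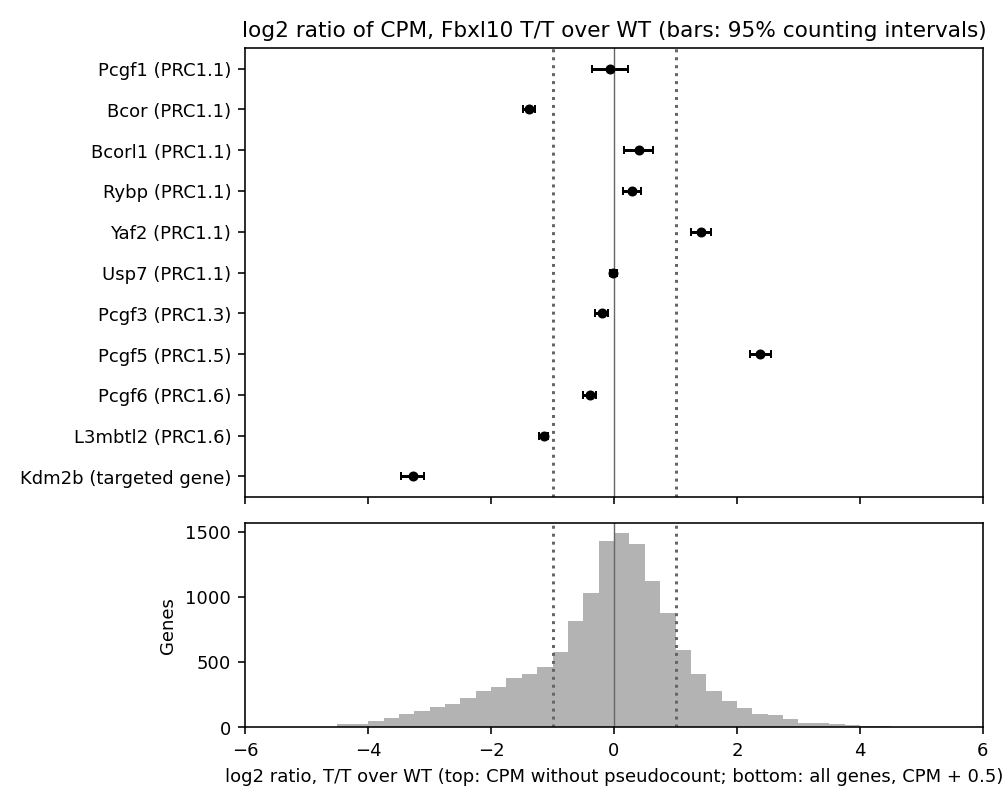
Top, log2 ratio of CPM in Fbxl10 T/T over WT for each member and Kdm2b, with 95% counting intervals as bars. Bottom, number of genes by log2 ratio of CPM + 0.5 over the 13512 genes at 1 CPM or more. Dotted lines mark 2-fold. Pcgf5 and Yaf2 lie to the right of the lines, and Bcor, L3mbtl2 and Kdm2b to the left.

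Pcgf3 and Pcgf5 encode paralogous subunits of PRC1.3 and PRC1.5 that are known to act redundantly in ES cells. Pcgf3 (chromosome 5, 108890251 to 108932118) was at 65.2 CPM in WT (1556 reads) and 56.7 CPM in T/T (1400 reads), 1.15-fold lower (1.07 to 1.24). Pcgf5 (chromosome 19, 36484238 to 36530682) was at 14.7 CPM in WT (352 reads) and 76.6 CPM in T/T (1891 reads). It was 5.20-fold higher, with a counting interval of 4.64 to 5.84, and 2.41% of all genes had a larger log2 ratio. The quotient of Pcgf5 to Pcgf3 was 0.226 in WT and 1.35 in T/T, 5.97-fold apart (5.21 to 6.85). This quotient was added after the values were seen. Set against Pcgf1, the PRC1.1 subunit, the quotient of Pcgf5 was 5.46-fold higher in T/T (4.31 to 6.90), whereas that of Pcgf3 was 0.914 times its WT value (0.736 to 1.13), an interval that spans no change. Transcripts of Pcgf3 and Pcgf5 share no run longer than 23 bases.

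The partner genes of PRC1.3 and PRC1.5 differed in direction. Auts2, whose protein is reported to turn PRC1.5 towards gene activation in neural cells, was at 22.5 CPM in WT (538 reads) and 1.54 CPM in T/T (38 reads), 14.6-fold lower. Its paralogues Fbrsl1 and Fbrs were at 94.0 and 45.1 CPM and at 58.4 and 85.5 CPM, 2.08-fold lower and 1.46-fold higher. The quotient of Fbrs to Auts2 thus went from 2.59 to 55.5, a comparison likewise added after the values were seen. The casein kinase genes Csnk2a1 (80.5 and 65.7 CPM), Csnk2a2 (77.5 and 93.1 CPM) and Csnk2b (189.0 and 215.4 CPM) all stayed within 1.5-fold.

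Pcgf6 and L3mbtl2 encode subunits known from PRC1.6, and both had lower values in T/T, by unequal factors. Pcgf6 (chromosome 19, 47108109 to 47125335) was at 72.1 CPM in WT (1722 reads) and 54.8 CPM in T/T (1354 reads), 1.31-fold lower (1.22 to 1.41) and inside the 2-fold limits. Its log2 ratio of -0.39 became -0.63 with a common upper quartile and -0.70 with equal totals, past 1.5-fold lower. L3mbtl2 (chromosome 15, 81494386 to 81518735), whose MBT-domain protein helps to hold PRC1.6 together, was at 211.5 CPM in WT (5052 reads) and 95.6 CPM in T/T (2359 reads). It was 2.21-fold lower (2.11 to 2.33), and 18.6% of all genes had a smaller log2 ratio. Against Pcgf1, the quotient of Pcgf6 was 1.25-fold lower in T/T (1.01 to 1.55). The DNA-binding partners were nearer to their WT levels, with Mga at 27.8 and 30.6 CPM, Max at 136.6 and 168.7 CPM and E2f6 at 65.7 and 60.2 CPM. Tfdp1, the E2F partner gene, was at 117.2 and 61.9 CPM and Hdac1, a histone deacetylase gene, at 126.2 and 63.5 CPM, both just inside 2-fold. Wdr5, a WD-repeat scaffold gene, was at 370.4 and 184.8 CPM, just past it at 2.00-fold lower. Cbx1, which encodes a heterochromatin protein, was 3.15-fold lower at 242.2 and 77.0 CPM.

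Across the 20 other genes of shared or variant PRC1 subunits, 0 were 2-fold higher and 4 were lower (Auts2, Cbx1, Fbrsl1 and Wdr5). By the same rule 14.8% of all genes were higher and 20.6% lower, so the count of lower genes is near the background. The median log2 ratio of the list was -0.16. With a common median Tfdp1 and Hdac1, at log2 ratios of -0.92 and -0.98, would pass 2-fold lower too. The ligase genes Ring1 and Rnf2, which encode RING1A and RING1B, were at 13.9 and 20.6 CPM and at 49.7 and 43.3 CPM, within 1.5-fold. Ring1 and Fbrs had the largest ratios of the list, at 1.48- and 1.46-fold higher. Of 11 measured genes of canonical PRC1, 2 were higher and 4 lower under the authors' scaling, against 14.8% and 20.6% of all genes. Among the lower ones, Cbx6 (33 and 8 reads) was listed only through its WT level and had to be lower. Genes with under 22 reads in WT and under 28 in T/T are absent from the table. Phc2 and Bmi1 (8.67 and 20.5 CPM) were the higher ones, and Phc1 and Cbx7 had the smallest ratios, 10.9- and 5.07-fold lower. With a common upper quartile Phc2 and Bmi1, at log2 ratios of 1.20 and 1.19, would fall within 2-fold. Processed copies of genes such as Cbx3 (5.69 and 7.86 CPM) can take reads, which makes their levels uncertain.

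Per kb of exon (all annotated exons of GENCODE M21 joined), the order of the members differed between the libraries. In WT, L3mbtl2 was the most abundant at 35.6 CPM per kb, followed by Usp7 at 26.5, Bcor at 15.1, Pcgf6 at 14.3, Yaf2 at 9.34, Pcgf3 at 6.83, Rybp at 6.17, Pcgf1 at 5.00, Bcorl1 at 1.25 and Pcgf5 at 1.17. In T/T, Usp7 was at 26.3 CPM per kb, Yaf2 at 24.9, L3mbtl2 at 16.1, Pcgf6 at 10.9, Rybp at 7.58, Pcgf5 at 6.07, Pcgf3 at 5.94, Bcor at 5.81, Pcgf1 at 4.77 and Bcorl1 at 1.66. Neighbours whose exact Poisson intervals overlapped were Bcor with Pcgf6, Pcgf3 with Rybp, Rybp with Pcgf1, and Bcorl1 with Pcgf5 in WT. In T/T they were Usp7 with Yaf2, and Pcgf5, Pcgf3 and Bcor with each other. The orders depend on the length taken for each gene. With the longest transcript, a setting added after the values were seen, Pcgf5 was at 2.29 CPM per kb in WT, above Bcorl1 at 1.43. Pcgf1 at 8.99 lay above Pcgf3 at 8.45 and Rybp at 6.49 in WT, and Pcgf6 at 25.5 above Bcor at 18.8. In T/T Pcgf5 was at 11.9, above Rybp at 7.98. There Pcgf1 at 8.56 lay above Rybp, Pcgf3 at 7.36 and Bcor at 7.25. With either length Pcgf5 lay below Pcgf3 and Pcgf1 in WT and above both in T/T. With joined exons its T/T interval overlapped that of Pcgf3. The places of Pcgf5 beside Bcorl1 and Rybp, of Pcgf1 in both libraries, and of Pcgf6 beside Bcor in WT are therefore uncertain. The annotation used for counting may hold other exons.

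The 6 PCGF paralogues are alternatives, since a PRC1 complex is known to hold 1 PCGF protein. Their summed level was similar under the authors' scaling, at 58.9 CPM per kb in WT and 56.2 CPM per kb in T/T. Rescaling to equal totals lowers every T/T value, and so the T/T sum, by 0.31 on the log2 scale. It leaves the shares within a library unchanged. Pcgf5 made up 1.98% of the summed level in WT and 10.8% in T/T, and Bmi1, of canonical PRC1, 3.70% and 9.16%. Pcgf1 held 8.49% and 8.48%, Pcgf3 11.6% and 10.6%, and Pcgf6 24.3% and 19.4%. Pcgf2, the other canonical paralogue, remained the largest part at 49.9% and 41.6%. With the longest transcript of each gene as its length, Pcgf5 made up 2.56% and 13.8%. RNA shares say nothing of protein or of complexes formed.

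**Figure D3:**
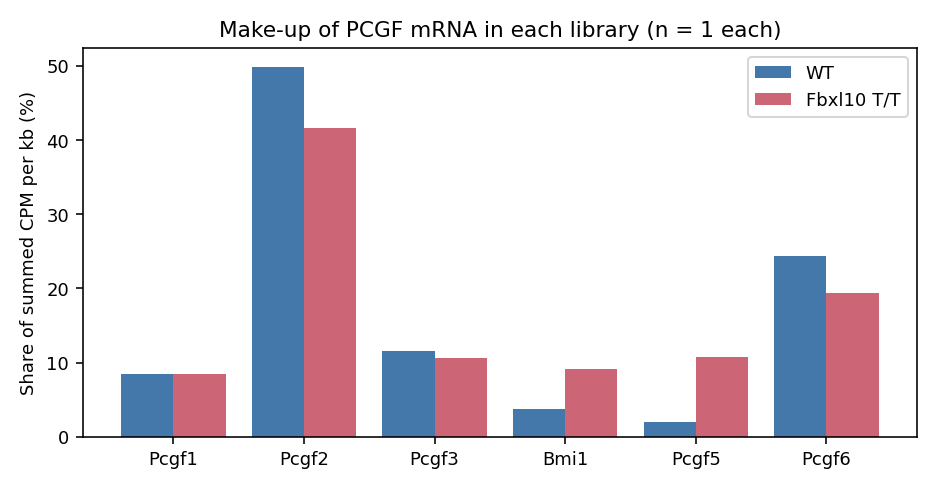
Share (%) of each PCGF gene in the summed CPM per kb of exon of the 6 paralogues, for 1 WT and 1 Fbxl10 T/T library. The bars of Pcgf5 stand at 1.98% and 10.8% and those of Pcgf1 at 8.49% and 8.48%.

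Endoderm and many pluripotency markers differed between these libraries by large factors, and fibroblast markers by less. Of 18 measured extraembryonic endoderm markers 17 were at least 2-fold higher in T/T, with a summed level of 8812 CPM in WT and 76668 CPM in T/T, and none of them at 0. Sox17 and Lama1 were 14.4- and 12.2-fold higher in T/T, and Ttr (6.57 and 8.06 CPM) and Amn (63.7 and 312.7 CPM) had the smallest ratios. Of 18 pluripotency markers 11 were lower, 7 lay within 2-fold and 0 were higher, and their summed level went from 9235 to 3141 CPM. Dppa3 (137 and 23 reads) was listed only through its WT level. Nr0b1 and Tdgf1 were lowest in ratio, and Klf5 and Tbx3 highest, at 132.2 and 173.6 CPM and at 218.9 and 255.6 CPM. Of 17 measured fibroblast markers 3 were lower, 14 lay within 2-fold and 0 were higher, with summed levels of 1935 and 1348 CPM. This split is that of the authors' scaling, under which 14.8% of all genes were higher and 20.6% lower. Rescaling to a common median lowers T/T values by 0.13 on the log2 scale. Prrx1, Dcn, Fbn1 and Thy1, at log2 ratios of -0.99, -0.91, -0.90 and -0.88, would then pass 2-fold lower too. Twist1 (28.6 and 4.17 CPM) and Fstl1 had the smallest ratios there, and Postn and Col1a1 the largest. The part of these marker differences in the values of Pcgf5, Yaf2, Bcor and L3mbtl2 was not tested. In such bulk RNA, fewer cells of a type and less RNA per cell cannot be told apart.

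Germline genes known as targets of PRC1.6 were listed at lower values in T/T. Of 20 such genes 18 were measured, 16 were at least 2-fold lower and 1, Brdt, was higher at 1.55 and 3.65 CPM. Stra8 and Taf7l had the smallest ratios, and Tdrkh was at 1.05 and 0.527 CPM. In T/T 14 of the 18 were under 1 CPM and 6 had at most 3 reads. Genes with under 22 reads in WT and under 28 in T/T are absent from the table, so a gene this low in T/T entered it through its WT level and had to be lower. The counts of this list are therefore given as a description.

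**Figure D4:**
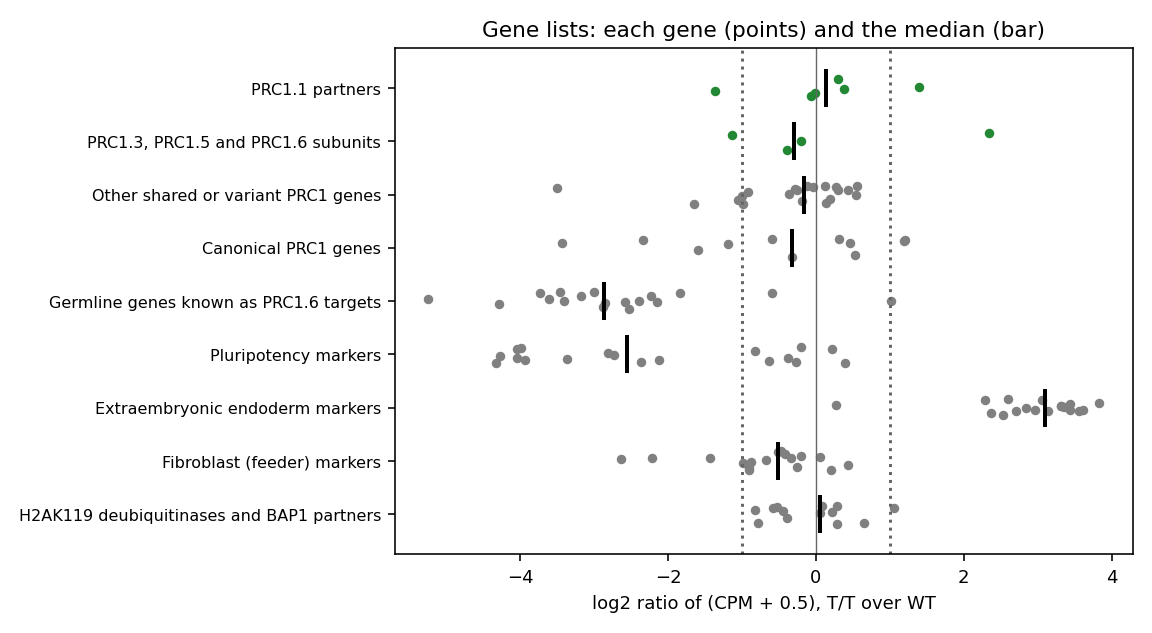
log2 ratio of (CPM + 0.5) in Fbxl10 T/T over WT for each measured gene of 9 lists (points), with list medians (bars) and 2-fold limits (dotted). The PRC1.1 partners and the other 4 members (green) lie on both sides of 0, while 17 of 18 endoderm markers lie to the right of the limits and 16 of 18 germline genes to the left.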

How the data were processed

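RNA was sequenced from 1 wild-type and 1 Fbxl10 T/T library of mouse ES cells. The submitters' processing notes name mm9 as the build, and edgeR, TopHat 1.4.1 and HTSeq 0.5.3p9 without saying what each did. The annotation and whether strand was used are not stated in the sources used here, so overlapping transcripts on opposite strands may share reads. The authors deposited, per gene, a signal per library and a log2 ratio of WT over T/T. From its values the signal was taken to be normalised to an effective library size, which the labels do not state. In the authors' deposited table the log2 ratio of WT over T/T is -2.38 for Pcgf5 and 1.38 for Bcor. In each library 100% of values were whole multiples of 1 step (tolerance 0.01 reads), which gave back the reads, 21198574 in WT and 27109446 in T/T, at 0.0419 and 0.0405 CPM per read. The 24706 rows hold 13620 genes, each used once. The 10 most abundant genes took 4.76% and 8.72% of reads.

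Genes were taken at 1 CPM or more in a library. With 1 library per genotype no genotype test was possible. Because of the unit, the exact test of edgeR 4.0.16 on these reads was added only to compare the libraries, with a biological coefficient of variation that was assumed. At an adjusted p of at most 0.05 it called 4921 genes (36.1%) with a coefficient of 0.2, among them Bcor, Yaf2, Pcgf5 and L3mbtl2, and 1696 (12.5%) and 0 of the 10 members with 0.4. The members and lists were chosen with earlier results of these data known. Named are all members, Kdm2b, the 2 largest and 2 smallest ratios of each list and some fixed partners. Other genes of the lists (Fbrsl1, Wdr5, Tfdp1, Hdac1, Cbx3 and the casein kinase genes) were named after their values were seen. Simulated reads for this comparison over 13620 genes gave 100% of 100 genes changed 4-fold past the 2-fold rule, and 95.7% of intervals covered the true ratio. These reads had Poisson counting error only, and the changed genes were drawn from those at a mean of 5 CPM or more. Such a simulation checks the calculation and says nothing of variation between cultures. Promoter windows come from RefSeq (GRCm38.p6), with no conversion of coordinates. Python 3.11.15, numpy 2.4.6, pandas 2.3.3, scipy 1.17.1, matplotlib 3.10.9 and R 4.3.3 were used.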

Additional observations from a re-analysis of the deposited data

How the results depend on the processing

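No paired analysis was possible because each genotype has only 1 library, so leaving out a library was not possible either. Rescaling to a common median, upper quartile or equal totals lowers every T/T value by 0.13, 0.24 or 0.31 on the log2 scale, and the median over all genes became -0.11, -0.21 or -0.27. Under these scalings the PRC1.3, PRC1.5 and PRC1.6 median moved to -0.43, -0.53 and -0.60. The PRC1.1 median changed sign to -0.10 at a common upper quartile and -0.16 at equal totals. At equal totals Kdm2b moved to -3.50 and 1317 genes were 2-fold higher. Pcgf5, Yaf2, Bcor and L3mbtl2 stayed past 2-fold under all 3 scalings and both other pseudocounts, with Yaf2 lowest at 1.08 and L3mbtl2 between -1.45 and -1.14. Past 4-fold lay 1 member higher (Pcgf5) and 0 lower, with 519 genes higher and 1229 lower in all. At 1.5-fold 3582 genes were higher. With a minimum of 5 CPM 1737 were lower, since fewer genes were counted. All 5 quotients between paralogues stayed within their intervals with a pseudocount. Depth limited Pcgf1 most, with 197 and 194 reads.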

Other observations

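A further list of genes was written after the members' values were seen. It holds genes for enzymes that remove ubiquitin from H2A, the opposite activity to PRC1, and for partners of such an enzyme, BAP1. Under the authors' scaling 1 of 13 genes was at least 2-fold higher, Usp16, at 10.3 CPM in WT and 22.0 CPM in Fbxl10 T/T. Of the list 0 were lower, against 14.8% higher and 20.6% lower among all genes. The median log2 ratio of the list was 0.06. Bap1, which encodes the catalytic subunit of the Polycomb deubiquitinase complex, was at 205.9 and 150.8 CPM. Its alternative partners Asxl1 and Asxl2 were at 155.4 and 118.8 CPM and at 28.3 and 44.5 CPM. The smallest ratios were those of Hcfc1, at 598.0 and 338.6 CPM, and Asxl3, at 1.13 and 0.446 CPM. With a common median Usp16, at a log2 ratio of 1.06, would fall within 2-fold. With a common upper quartile Hcfc1, at -0.82, would pass 2-fold lower. Asxl3 (27 and 11 reads) was listed only through its WT level and had to be lower.

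The nearest listed gene on each side of each member was taken by position in mm9, also after the values were seen. Of these 20 neighbours 7 were at least 2-fold higher and 4 lower, against 14.8% and 20.6% of all genes, all under the authors' scaling. Rescaling to equal totals lowers T/T values by 0.31 on the log2 scale. Zcrb1, Atp6ap2, Carhsp1 and Tnks2, at log2 ratios of 1.01, 1.15, 1.16 and 1.26, would then fall within 2-fold. Ep300, at -0.78, would then pass 2-fold lower. Both neighbours of Pcgf5 were higher, Ankrd1 at 4.82 and 14.7 CPM and Tnks2 at 83.3 and 200.8 CPM, at distances of 290 and 378 kb. Both neighbours of Yaf2 were higher too, Glt8d3 at 16.3 and 63.9 CPM and Zcrb1 at 25.0 and 50.9 CPM, at 8.76 and 49.2 kb. Elf4, 3.0 kb from Bcorl1, was at 23.0 and 108.7 CPM. Neighbours also went against or apart from their member. Beside Bcor, which was lower, Atp6ap2 was at 63.2 and 141.3 CPM and Mid1ip1 at 38.4 and 3.85 CPM. Beside Pcgf6, within 2-fold, Ina was at 66.2 and 6.44 CPM and Taf5 at 25.6 and 25.7 CPM. The neighbours of L3mbtl2 were Ep300, at 164.8 and 95.6 CPM, and Chadl, at 1.88 and 0.324 CPM. Chadl, and Tlx2 beside Pcgf1 (1.80 and 0.122 CPM), are among the neighbours counted as lower. Both were under the read minimum in T/T and listed only through WT, so they had to be lower. On chromosome 15 Yaf2 was higher and L3mbtl2, 11.6 Mb away, lower. Pcgf5 and Pcgf6 on chromosome 19 are 10.6 Mb apart.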
